A study of Mus musculus with 11 samples.

Results

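The results below follow 9 genes of adrenergic and cAMP signaling through the pancreas and the epididymal adipose tissue of mice with obesity-related alcohol-induced acute pancreatitis (OA-AP). They were chosen by name, with earlier results of these data known. The set comprises 4 adrenergic receptors (Adrb1, Adrb3, Adra1a and Adra2a) and the stimulatory G protein alpha subunit Gnas. It also holds 2 subunits (Prkaca and Prkar2b) of protein kinase A (PKA) and 2 cAMP phosphodiesterases (Pde3b and Pde4b). All 9 were found in both count tables, among 54532 genes listed for the pancreas, 46078 listed for adipose tissue and 45260 listed in both. The counts came from 11 RNA sequencing libraries, 5 of pancreas (2 control, 3 OA-AP) and 6 of fat (3 control, 3 OA-AP).

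All mice were wild type males of the C57BL/6J substrain, given as C57BL/6 in the labels, with a labeled age of 16 weeks. Control mice ate chow for 12 weeks and received 2 intraperitoneal injections of saline. OA-AP mice ate high-fat food over the same 12 weeks and were injected with ethanol in place of saline, 2 g/kg each time, at an interval of 1 h. Tissue was taken 12 h after the first injection. Diet and ethanol differed together, so the 2 cannot be told apart in any comparison of OA-AP with control. Neither the labels nor the methods state whether the pancreas and the fat came from the same animals, or whether libraries were made from pooled animals, so p-values measure the spread between these libraries.

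Noradrenaline released by sympathetic nerves acts on beta adrenergic receptors, which couple through the stimulatory G protein to adenylyl cyclase and raise cAMP. Alpha 2 receptors couple to inhibitory G proteins and lower cAMP, and alpha 1 receptors act mainly through Gq and calcium. cAMP releases the catalytic subunits of PKA from their regulatory subunits, and in adipocytes PKA phosphorylates perilipin and hormone-sensitive lipase and so drives lipolysis. Phosphodiesterases break cAMP down, and Pde3b is the enzyme through which insulin restrains lipolysis. In pancreatic beta cells the alpha 2A receptor restrains insulin secretion, and in acinar cells cAMP enhances the secretion that calcium drives.

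The libraries held 20825177 to 27928097 counts in adipose tissue and 14188832 to 17238919 in the pancreas. Expression is given as counts per 1000000 (CPM) of library size after scaling within each tissue by the trimmed mean of M-values (TMM), and a gene was called when its edgeR adjusted p-value was under 0.05 and its fold change at least 1.5. The summed CPM of 8 adipocyte markers (Adipoq, Lep and others) was 37210 to 40500 in control and 30960 to 37760 in OA-AP adipose libraries, and 1 of the 8 (Lep) rose while 2 (Cfd and Plin1) fell. In the same tissue 6 of 7 tested neutrophil markers rose, from sums of 17.4 to 36.1 CPM in control to 187 to 210 CPM in OA-AP libraries, and 5 of 7 fibroblast markers fell. Of 8 T and B lymphocyte markers 6 fell there, from sums of 11.6 to 46.7 CPM in control to 3.06 to 4.95 CPM in OA-AP libraries. Acinar cell genes took 0.971% of the counts of control adipose replicate 2 and at most 0.00188% of the other adipose libraries. In the pancreas the acinar genes took 75.2% and 76.8% of control counts and 58.1% to 60.2% of OA-AP counts, and 20 of 34 of them fell. A fall of a gene in such bulk tissue cannot be told apart between fewer cells of a type and less RNA per cell.

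Promoter sequence was taken from RefSeq on GRCm38.p6 for the 6 of the 9 genes that matched, as the 250 bases before each start site. The windows of Adrb1 and Prkaca are shown as examples. Both genes were called in the pancreas, and neither window holds an annotated exon. Capitals mark the core of the cAMP response element (TGACG, or CGTCA when read on the other strand) and the E-box CACGTG.
Adrb1, chr19:56721867-56722116, plus strand: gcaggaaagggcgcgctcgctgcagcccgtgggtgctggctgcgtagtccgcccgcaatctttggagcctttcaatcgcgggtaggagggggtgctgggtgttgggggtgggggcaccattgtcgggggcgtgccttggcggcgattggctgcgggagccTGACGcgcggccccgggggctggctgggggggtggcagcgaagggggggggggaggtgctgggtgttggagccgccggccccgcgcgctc
Prkaca, chr8:83972728-83972977, plus strand: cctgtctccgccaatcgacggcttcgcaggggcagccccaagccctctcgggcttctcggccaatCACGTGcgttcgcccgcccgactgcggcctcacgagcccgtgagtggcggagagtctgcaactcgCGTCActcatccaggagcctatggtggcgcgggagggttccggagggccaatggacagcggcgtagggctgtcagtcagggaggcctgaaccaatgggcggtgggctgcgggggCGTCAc
The Adrb1 window held the core 1 time, and the Prkaca window held it 2 times, with 1 E-box. The window of the other Prkaca start site, which is not shown, held neither. Nor did the Gnas window chr2:174284070-174284319, which is not shown although Gnas was called in the pancreas and this window holds no annotated exon. Each motif was searched on both strands, and the core lies within the full element TGACGTCA. The core was present in 17.8% and the E-box in 6.02% of 32851 promoter windows of the same length. Over the 14 start sites of the 6 genes, some of whose windows overlap, 7 windows held the core and 0 held the full element, which 1.55% of all windows held. Adra2a, Gnas and Pde4b each had at least 1 window with the core, and Prkar2b had none. These matches describe letters only.

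In adipose tissue 2 of the 9 genes were called, the beta 3 receptor Adrb3 and the phosphodiesterase Pde3b, and both fell. Among all 15839 genes tested there 25.1% were called, with 12.1% higher and 13.0% lower in OA-AP. In the pancreas 6 of the 9 had enough counts to be tested and 4 of them were called. The alpha 2A receptor Adra2a rose, whereas Gnas, Prkaca and the beta 1 receptor Adrb1 fell. Of all 12884 genes tested in the pancreas 29.8% were called, with 16.2% higher and 13.5% lower. Adrb3, Adra1a and Prkar2b were filtered out of the pancreas fit for low counts. The median log2 fold change was -0.07 over the 9 genes in adipose tissue and -0.71 over the 6 genes tested in the pancreas, against -0.01 and 0.04 over all genes tested.

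**Figure D1:**
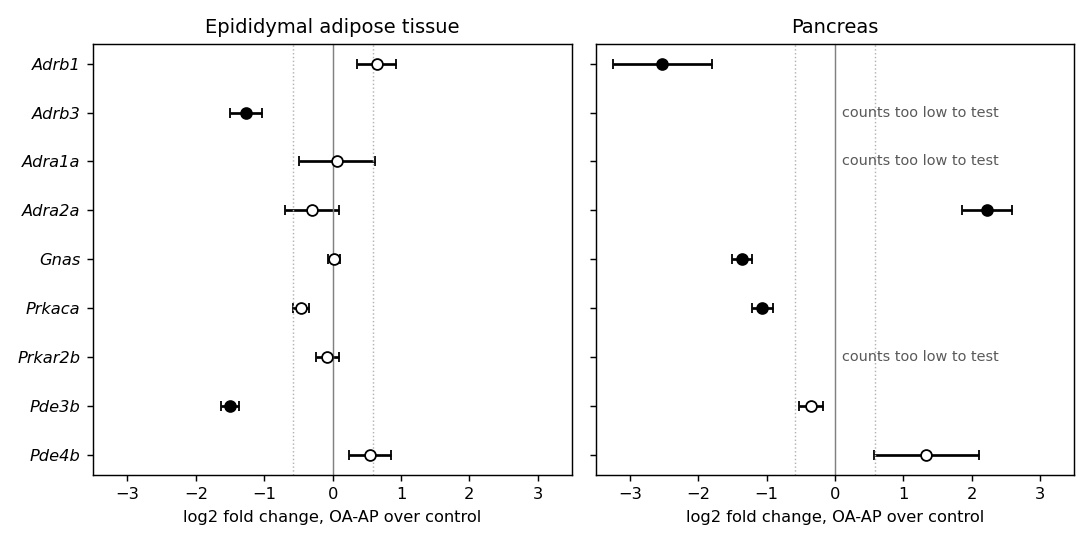
Log2 fold change of OA-AP over control (horizontal axis) for each gene in adipose tissue and pancreas. Points are edgeR estimates and bars 1 standard error, filled points passed both thresholds, and dotted lines mark a 1.5-fold change. Pde3b (-1.50) and Adrb3 (-1.27) are filled in adipose tissue, and Adra2a (2.22), Prkaca (-1.06), Gnas (-1.36) and Adrb1 (-2.53) in the pancreas.

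Adrb3 (ENSMUSG00000031489, GRCm38 chromosome 8, 27225776 to 27250616, minus strand) encodes the beta 3 receptor, the main lipolytic adrenergic receptor of rodent fat. It was measured at 1067, 1208 and 1269 CPM in the control adipose libraries and at 654, 339 and 479 CPM in the OA-AP libraries. Every OA-AP library lay below every control library. The mean was 1181 ± 104 CPM (SD, n = 3) in control and 491 ± 158 CPM (SD, n = 3) in OA-AP mice, a 2.41-fold decrease (log2 fold change -1.27, SE 0.24, edgeR adjusted p = 0.00689). Of the exon bases of Adrb3, 24.9% are shared with the antisense gene Gm45470, which is not listed in the adipose table and had at most 2 counts in any pancreas library. How reads in these shared bases were assigned is not known, as the strand setting of the counting is not given. Adrb3 was also set against the summed counts of the 8 adipocyte markers, a ratio within each library that needs no scaling and was chosen after the values were seen. It came to 27.5, 32.5 and 31.3 counts per 1000 marker counts in control and to 17.3, 10.96 and 14.0 in OA-AP libraries, so the groups stayed apart. Adrb3 was called in each of the 6 fits that left out 1 adipose library. In the pancreas it was barely detected, with 0 and 2 counts in control mice and 0, 5 and 7 in OA-AP mice.

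Adrb1 (ENSMUSG00000035283, chromosome 19, 56722372 to 56724862, plus strand) encodes the beta 1 receptor. In adipose tissue it stood at 3.99, 6.19 and 4.77 CPM in control and 9.23, 4.86 and 9.24 CPM in OA-AP libraries. OA-AP replicate 2 lay within the control range and the other OA-AP libraries above it. The difference did not pass the test (log2 fold change 0.64, SE 0.29, edgeR adjusted p = 0.121). Without OA-AP replicate 2 it did (0.90, edgeR adjusted p = 0.0165), but that library was singled out by these same values. In the pancreas Adrb1 had 29 and 11 counts in control libraries (2.49 and 1.10 CPM) and 8, 8 and 1 in OA-AP libraries (0.42, 0.458 and 0.0523 CPM). It fell by 2.53 on the log2 scale there (SE 0.72, edgeR adjusted p = 0.0298), with no overlap of the groups. At these few counts the call was lost when control replicate 1 (adjusted p = 0.312), control replicate 2 (0.0814) or OA-AP replicate 1 (0.0615) was left out, and when libraries were scaled by their totals alone (log2 fold change -1.82, adjusted p = 0.0674).

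Adra2a (ENSMUSG00000033717, chromosome 19, 54045182 to 54048982, plus strand) encodes the alpha 2A receptor. It was at 1.29 and 0.897 CPM in the control pancreas (15 and 9 counts) and at 6.56, 4.06 and 4.81 CPM in the OA-AP pancreas (125, 71 and 92 counts). All 3 OA-AP libraries lay above both control libraries. The mean was 1.09 ± 0.28 CPM (SD, n = 2) in control and 5.14 ± 1.28 CPM (SD, n = 3) in OA-AP mice, and the fitted increase was 4.65-fold (log2 fold change 2.22, SE 0.37, edgeR adjusted p = 0.0032), called in each of the 5 fits that left out 1 pancreas library. Markers of islet endocrine cells, in which this receptor is known to act, summed to 932 and 1156 CPM in control and 1275 to 1558 CPM in OA-AP pancreas, and 1 of the 6 (Iapp) rose. Within libraries Adra2a came to 1.38 and 0.776 counts per 1000 islet marker counts in control and to 4.21, 3.19 and 3.39 in OA-AP pancreas, a ratio chosen after the values were seen. Mesothelial markers summed to 191 and 210 CPM in control and to 488 to 1181 CPM in OA-AP pancreas, and 2 of the 5 rose. Those were Krt8 and Krt18, keratins of many epithelia that made up most of the sum, while Upk3b (7.13 and 1.57 CPM in control and OA-AP means), Msln (2.80 and 2.38) and Upk1b (1.08 and 1.09) were not called. Their part in the Adra2a result was not tested. In adipose tissue Adra2a had 18 to 37 counts in control and 10 to 24 in OA-AP libraries (log2 fold change -0.30, SE 0.39, edgeR adjusted p = 0.573), and the groups overlapped.

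Adra1a (ENSMUSG00000045875, chromosome 14, 66635251 to 66771168, plus strand) encodes the alpha 1A receptor. In adipose tissue its values were 9.19, 10.2 and 6.88 CPM in control and 3.63, 18.0 and 5.76 CPM in OA-AP libraries. OA-AP replicate 2 was the highest of the 6 libraries and the other OA-AP libraries were the lowest. The comparison did not pass the test (log2 fold change 0.06, SE 0.56, edgeR adjusted p = 0.939). Its direction rested on that library, since without it the log2 fold change was -0.89 (edgeR adjusted p = 0.0382). That library was singled out by these same values, so this fit is no separate evidence of a fall. In the pancreas Adra1a had 0 and 2 counts in control and 0, 0 and 1 in OA-AP libraries.

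Gnas (ENSMUSG00000027523, chromosome 2, 174284320 to 174346744, plus strand) encodes the stimulatory G protein alpha subunit, and the locus is imprinted and makes several transcripts that a gene count adds together. In the pancreas it stood at 26.7 and 25.9 CPM in control and at 11.2, 9.78 and 9.67 CPM in OA-AP libraries. It fell 2.57-fold (log2 fold change -1.36, SE 0.14, edgeR adjusted p = 0.000466), with SDs of 0.544 CPM (n = 2) and 0.868 CPM (n = 3), and was called in each fit that left out 1 library. In adipose tissue Gnas was at 56.5, 61.6 and 64.0 CPM in control and at 60.4, 64.8 and 60.1 CPM in OA-AP libraries, which overlapped throughout (log2 fold change 0.02, SE 0.09, edgeR adjusted p = 0.839). Exons of Gnas share 22.0% of their bases with Gm20721 and Nespas on the opposite strand, which had at most 8 and 4 counts in any adipose library. The strand setting of the counting is not given, so how reads in the shared bases were assigned is not known.

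Prkaca (ENSMUSG00000005469, chromosome 8, 83972993 to 83996443, plus strand) encodes the alpha catalytic subunit of PKA. It was measured at 27.97 and 32.9 CPM in the control pancreas and at 13.7, 16.2 and 13.8 CPM in the OA-AP pancreas, with no overlap. The decrease was 2.09-fold (log2 fold change -1.06, SE 0.15, edgeR adjusted p = 0.00164). In adipose tissue its values were 158, 142 and 143 CPM in control and 115, 91.3 and 115 CPM in OA-AP libraries, again without overlap. That difference had an adjusted p of 0.0207 with edgeR but was 1.38-fold in size (log2 fold change -0.46, SE 0.12) and so was not called. Against the adipocyte markers Prkaca came to 3.53 to 4.07 counts per 1000 marker counts in control and to 2.95 to 3.36 in OA-AP fat.

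Prkar2b (ENSMUSG00000002997, chromosome 12, 31958476 to 32061296, minus strand) encodes the RII beta regulatory subunit, the main regulatory subunit of PKA in white fat. It was among the most abundant of the 9 genes in adipose tissue, at 634, 724 and 629 CPM in control and 516, 779 and 592 CPM in OA-AP libraries. OA-AP replicate 2 was the highest and the other OA-AP libraries the lowest of the 6, and the difference did not pass the test (log2 fold change -0.07, SE 0.17, edgeR adjusted p = 0.757). In the pancreas Prkar2b had 10 and 7 counts in control and 14, 2 and 5 in OA-AP libraries.

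Pde3b (ENSMUSG00000030671, chromosome 7, 114415281 to 114539251, plus strand) encodes the insulin-regulated phosphodiesterase of adipocytes. In adipose tissue it was at 603, 646 and 654 CPM in control and at 247, 194 and 233 CPM in OA-AP libraries. All OA-AP libraries lay below all control libraries, with SDs of 27.1 and 27.6 CPM (n = 3 each). It fell 2.82-fold (log2 fold change -1.50, SE 0.13, edgeR adjusted p = 0.000562), which was the smallest adjusted p of the 9 genes in this tissue. Per 1000 adipocyte marker counts Pde3b came to 15.6, 17.4 and 16.1 in control and to 6.55, 6.26 and 6.81 in OA-AP fat. In the pancreas its values were 14.4 and 12.2 CPM in control and 11.2, 11.1 and 9.05 CPM in OA-AP libraries. Those groups did not overlap, but the difference did not pass the test (log2 fold change -0.35, SE 0.18, edgeR adjusted p = 0.162).

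Pde4b (ENSMUSG00000028525, chromosome 4, 102087543 to 102607259, plus strand) encodes a cAMP-specific phosphodiesterase that is prominent in immune cells. In adipose tissue it stood at 12.9, 30.2 and 19.6 CPM in control and at 25.4, 36.0 and 30.0 CPM in OA-AP libraries. The groups overlapped through control replicate 2. The difference did not pass the test over all libraries (log2 fold change 0.55, SE 0.30, edgeR adjusted p = 0.197). It passed without that library (0.91, edgeR adjusted p = 0.0341), which was singled out by these same values. The part of the rising neutrophil and falling lymphocyte markers of fat in these values was not tested. In the pancreas Pde4b was at 0.858 and 1.60 CPM in control and at 1.36, 1.72 and 6.12 CPM in OA-AP libraries. OA-AP replicate 3 stood apart from the other 4, and the log2 fold change of 1.33 (SE 0.76, edgeR adjusted p = 0.215) was 0.30 without it. Neutrophil markers summed to 1.80 and 2.79 CPM in the control pancreas and to 4.63 to 106 CPM in OA-AP libraries, with a median of 14.3 CPM. Their part in the Pde4b values was not tested.

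**Figure D2:**
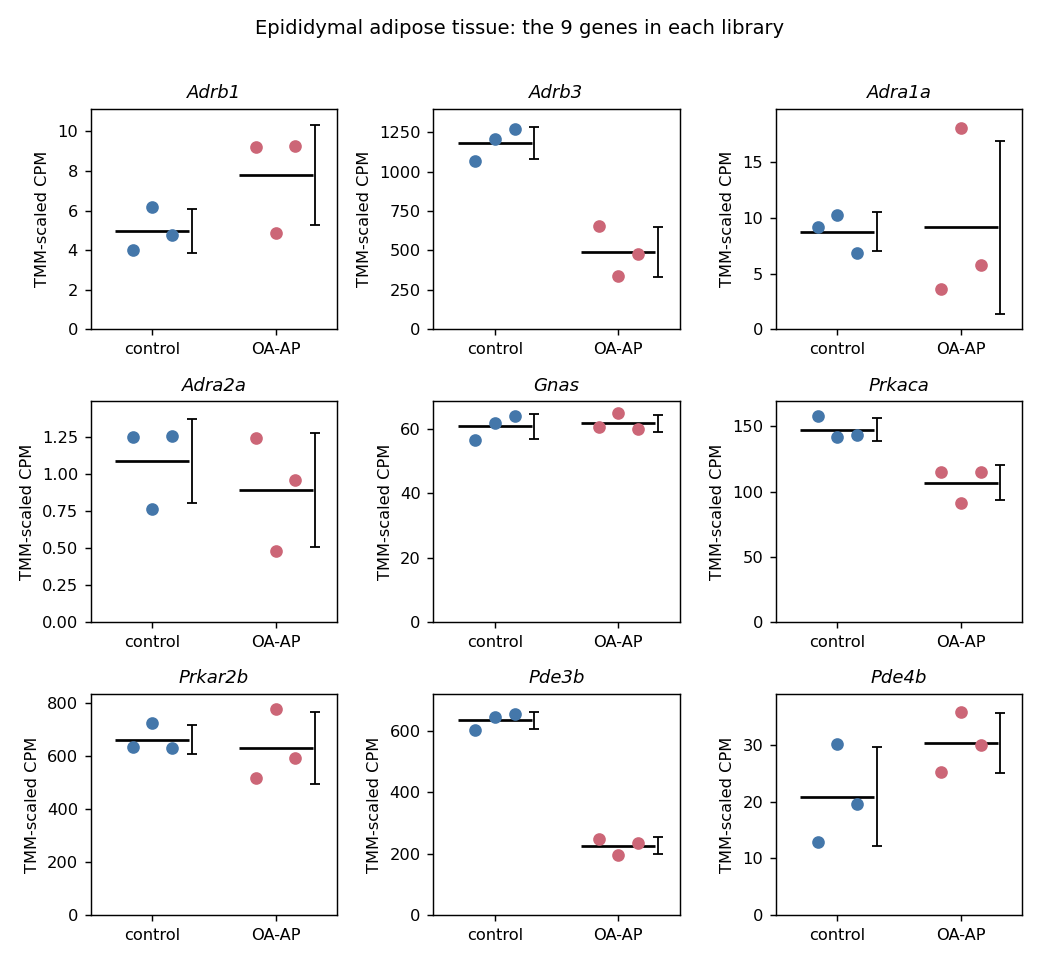
TMM-scaled CPM (vertical axes, from 0) of the 9 genes in the 3 control and 3 OA-AP adipose libraries. Points are libraries, horizontal lines means and bars 1 SD. Adrb3, Prkaca and Pde3b separate the groups, and 1 OA-AP library stands high for Adra1a (18.0 CPM).

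**Figure D3:**
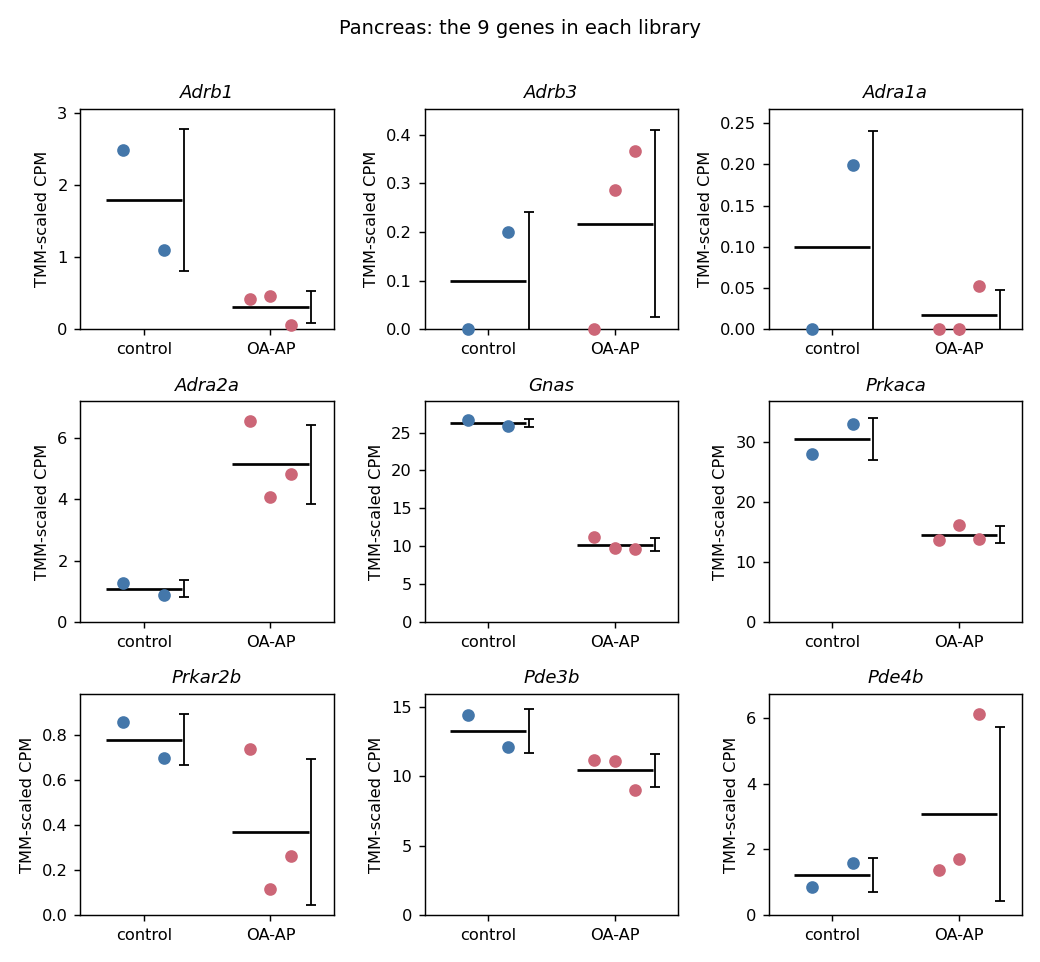
TMM-scaled CPM (vertical axes, from 0) of the 9 genes in the 2 control and 3 OA-AP pancreas libraries. Points are libraries, horizontal lines means and bars 1 SD, cut at 0 where they would reach below it. Adra2a lies higher and Gnas, Prkaca, Adrb1 and Pde3b lower in all OA-AP libraries, and 1 OA-AP library stands high for Pde4b (6.12 CPM).

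Levels of different genes were compared per kilobase of gene length, which the authors list for the pancreas only and which was used for both tissues. For Gnas (11186 bases) and Pde4b (10560 bases) this length equals that of all annotated exons together. Their ranks therefore depend on which transcripts are present, which a gene count does not show. In control adipose tissue Adrb3 was the highest at 350 ± 30.6 CPM per kilobase (SD, n = 3), before Prkar2b at 181 ± 14.6, Pde3b at 69.6 ± 2.98 and Prkaca at 59.3 ± 3.55. Gnas, at 5.43 ± 0.34 CPM per kilobase, and the others were far lower, and only Adrb1 and Pde4b overlapped as neighbors in this order. In OA-AP fat Prkar2b stood first at 172 ± 37.1 CPM per kilobase and overlapped with Adrb3 at 145 ± 46.6, and Prkaca at 43.0 ± 5.46 lay above Pde3b at 24.7 ± 3.03. In the control pancreas Prkaca was highest at 12.2 ± 1.4 CPM per kilobase (SD, n = 2), followed by Gnas at 2.35 ± 0.05 and Pde3b at 1.46 ± 0.17. In the OA-AP pancreas Prkaca remained first at 5.85 ± 0.57 CPM per kilobase (SD, n = 3). There Adra2a at 1.35 ± 0.34 CPM per kilobase overlapped with Pde3b at 1.15 ± 0.13, and Pde3b overlapped with Gnas at 0.915 ± 0.08.

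The control tissues were compared in a joint fit of all 11 libraries, in which 55.5% of 17046 genes were called and 7 of the 9 genes were. Lower in the pancreas than in fat were Adrb3 (log2 difference -11.63, edgeR adjusted p = 1.58e-07), Prkar2b (-7.75), Pde3b (-3.599), Adra1a (-4.56) and Pde4b (-2.13). Adra2a (1.97, edgeR adjusted p = 0.00288) and Gnas (0.77) were higher in the pancreas, while Adrb1 and Prkaca were not called. Set against 3 counts in each control pancreas library, the mean level of Adrb3 in control fat was at least 1081-fold higher and that of Adra1a at least 8.03-fold higher. These values depend on the scaling, since acinar transcripts fill most of the pancreas libraries. Scaling by library totals alone moved the median log2 difference of all genes by -2.45, and the called genes became 8 of 9, all lower in the pancreas. Adra2a (-0.48, adjusted p = 0.347) was then not called, and Gnas (-1.70) turned in direction. Without control pancreas replicate 1 the calls of Adra1a (edgeR adjusted p = 0.0668), Adra2a (0.0613) and Pde4b (0.166) were lost, and that of Pde4b also without control pancreas replicate 2 (0.0707). The adipose table uses older symbols for some genes, so gene models may differ between the tables.

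Whether the change with OA-AP differed between tissues was tested as the adipose response minus the pancreas response. Of all 17046 genes 20.6% were called for this term, and of the 9 genes 5 were. The response of Adrb1 was higher in fat by 3.19 on the log2 scale (SE 0.74, edgeR adjusted p = 0.0102) and that of Gnas by 1.38 (SE 0.15, adjusted p = 0.000154). Adra2a responded lower in fat (log2 difference -2.54, SE 0.57, edgeR adjusted p = 0.00806), as did Pde3b (-1.16, SE 0.20, adjusted p = 0.00181). For Prkaca, lower in the OA-AP libraries of both tissues, the term was 0.59 (SE 0.18, edgeR adjusted p = 0.0373), and it turned to -0.27 with library totals alone. Scaling by totals moved the median of all genes by -0.82 and left 4 genes called, with Adrb3 (-3.25, adjusted p = 0.0479) added and Gnas (0.53, adjusted p = 0.055) and Prkaca lost. Adrb1 lost its call without control pancreas replicate 1 (edgeR adjusted p = 0.104), and Prkaca lost its call in 9 of the 11 fits that left out a library, keeping it without adipose or pancreas OA-AP replicate 2. With TMM scaling Adrb3 (-2.49, SE 1.35) was not called, as its pancreas counts were near 0.

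Scaling bore on the pancreas results themselves. With library totals alone the median log2 fold change of all pancreas genes moved by 0.71 and 92.0% of calls were increases, against 54.5% with TMM. Adra2a (2.93) and Gnas (-0.65, edgeR adjusted p = 0.0185) kept their calls, Prkaca (-0.35, adjusted p = 0.131) and Adrb1 lost theirs, Pde4b (2.00, adjusted p = 0.0313) gained one, and Pde3b (0.36) changed sign without being called. In adipose tissue the same change of scaling moved the median of all genes by -0.15, and Prkaca (-0.62, edgeR adjusted p = 0.00546) joined Adrb3 and Pde3b.

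Shares within gene families need no scaling between libraries, and were computed per kilobase after the values were seen. Like the ranks, they depend on the gene length used. With 3 libraries against 3 an exact two-sided permutation test cannot give a p below 0.1, nor with 2 against 3 in the pancreas, so no share can pass a threshold of 0.05. Adra2a made up 89.1% ± 2.98 (SD, n = 2) of the alpha receptor signal in the control and 91.0% ± 4.64 (SD, n = 3) in the OA-AP pancreas. In control fat Adra1d was the main alpha receptor at 69.9% ± 1.18 (SD, n = 3), and in OA-AP fat it made up 38.5% ± 6.92, beside Adra1a at 39.6% ± 15.3. Adra1a led in OA-AP replicate 2 (56.6% against 30.5%), and Adra1d led in the other OA-AP libraries (42.7% against 27.1%, and 42.3% against 35.0%).

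Prkar2b made up 69.2% ± 2.15 (SD, n = 3) of the PKA regulatory subunits in control and 65.8% ± 6.05 in OA-AP fat, with overlap. In the pancreas Prkar1a led with 70.1% ± 1.12 (SD, n = 2) and 65.7% ± 2.82, and Prkar2b made up 2.46% ± 0.34 and 0.851% ± 0.756. Among the PDE3 and PDE4 enzymes of fat, Pde3b made up 90.4% ± 0.989 in control and 76.4% ± 5.11 in OA-AP mice, and Pde4b 2.54% ± 0.978 and 9.04% ± 2.13 (exact permutation p = 0.1 each, n = 3). Pde4a was the main form in the pancreas, at 53.4% ± 1.12 in control and 52.4% ± 12.4 in OA-AP mice.

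**Figure D4:**
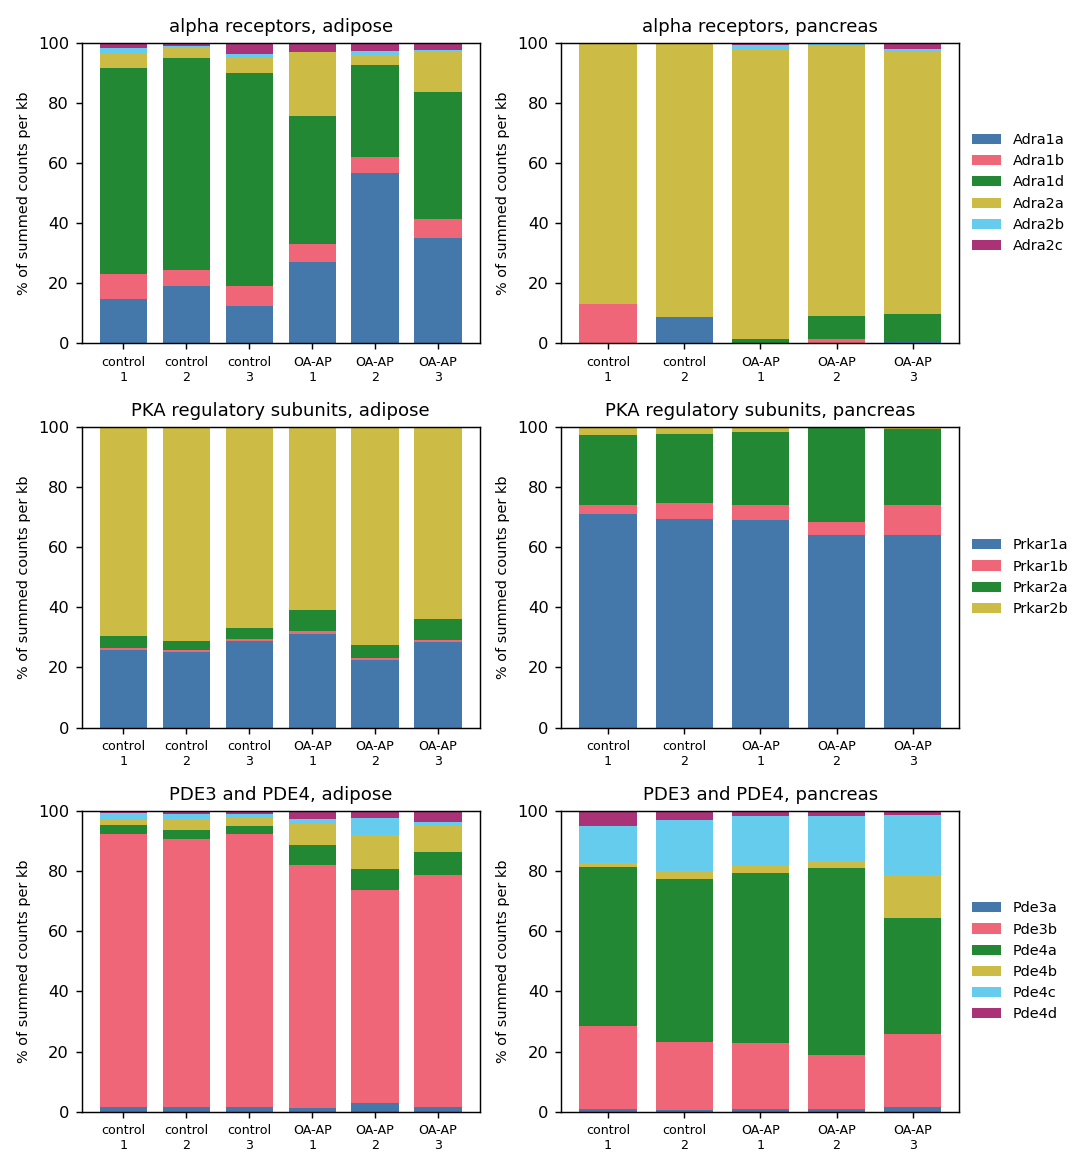
Share (vertical axis, percent) of each member in the summed counts per kilobase of its family, 1 bar per library. Prkar2b and Pde3b lead their families in all 6 adipose libraries, and Adra2a, Prkar1a and Pde4a lead in the pancreas means.

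A list of 95 other genes of the pathway was examined by role. In adipose tissue 83 were tested, of which 10 rose and 15 fell, or 30.1% called against 25.1% of all genes, with a median log2 fold change of -0.04. In the pancreas 66 were tested, of which 12 rose and 6 fell, or 27.3% called against 29.8% of all genes, with a median of 0.39. Scaling by library totals alone gave 7 higher and 19 lower in fat and 38 higher and 3 lower in the pancreas. Of the called pathway genes named here, 15 of 23 in fat and 6 of 15 in the pancreas were called in every fit that left out 1 library. In fat the exceptions were Adcy2, called in 1 of the 6 fits, Adcy4, Pde1a and Akap1 in 2, Pkig and Akap12 in 4, and Gnaz and Rgs2 in 5. In the pancreas the 6 were Gnai1, Pde8b, Grk2, Nr4a2, Lipe and Pnpla2. All pathway values below are log2 fold changes from edgeR, and p-values are adjusted over all genes tested.

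Of the other adrenergic receptors, both alpha 1 forms Adra1d (8.67 ± 0.463 CPM in control and 1.63 ± 0.446 in OA-AP fat, -2.41, adjusted p = 0.000656) and Adra1b (-1.70, adjusted p = 0.0115) fell in fat. In fat the G protein subunit Gnai3, which inhibits adenylyl cyclase, rose (0.78, adjusted p = 0.00144) and the related Gnaz fell (-1.26, adjusted p = 0.0143), with 6 of 8 alpha subunits not called. In the pancreas 1 of 8 was called, the inhibitory subunit Gnai1, which fell from 26.9 ± 0.438 to 5.89 ± 0.402 CPM (-2.19, adjusted p = 9.63e-05). The adenylyl cyclases make cAMP, and 5 of 9 were called in fat. Adcy4 (0.68, adjusted p = 0.0192) and Adcy2 (1.43, adjusted p = 0.0402) rose there, though few of the fits without 1 library kept these calls. The other 3 fell, among them Adcy6 (-0.83, adjusted p = 0.00128) and Adcy10 (-2.14, adjusted p = 0.0126). Adcy2 (means of 0.256 and 0.685 CPM in control and OA-AP fat) and Adcy10 (1.055 and 0.235 CPM) were low. Adcy6 was the 1 called cyclase of 6 tested in the pancreas, where it rose (0.85, adjusted p = 0.00361).

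Of 7 other PKA subunits and inhibitors, the regulatory subunit Prkar2a (0.72, adjusted p = 0.00566) and the inhibitor Pkig (0.97, adjusted p = 0.0145) rose in fat, and Prkar2a (0.66, adjusted p = 0.0117) also rose in the pancreas. Of the other phosphodiesterases 3 of 12 fell in fat, including Pde8b (-1.28, adjusted p = 0.00363) and Pde1a (-0.72, adjusted p = 0.0197), and 2 of 9 fell in the pancreas. Those were Pde8b, from 8.29 ± 0.682 to 0.445 ± 0.21 CPM (-4.19, adjusted p = 0.000264), and Pde4d (-1.30, adjusted p = 0.0458). Of the genes that desensitize receptors, Grk3 (-1.09, adjusted p = 0.0131) and Rgs2 (-1.79, adjusted p = 0.0157) fell in fat, and the receptor kinase Grk2 rose in the pancreas (1.02, adjusted p = 0.00104). Among 11 tested A-kinase anchoring proteins, which tether PKA, Akap2 (2.11, adjusted p = 0.00383) and Akap12 (1.03, adjusted p = 0.0159) rose in fat. Akap7 (-0.99, adjusted p = 0.00275) and Akap1 (-0.62, adjusted p = 0.0194) fell there. Akap2 was low, at means of 0.264 and 1.16 CPM in control and OA-AP fat, against 125 and 255 CPM for Akap12. In the pancreas 0 of 8 were called by edgeR, with 4 at an unadjusted p under 0.05 and 0 called by DESeq2.

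Among cAMP effectors and CREB factors 0 of 10 were called in fat by edgeR, with 4 at an unadjusted p under 0.05 and 0 called by DESeq2. All 4 also had an adjusted p under 0.05 but changed by less than 1.5-fold. Rapgef3 (0.53, adjusted p = 0.00713), Crtc3 (0.54, adjusted p = 0.01) and Crtc2 (0.53, adjusted p = 0.0269) were higher in OA-AP fat. Crebbp (-0.28, adjusted p = 0.0323) was lower there. In the pancreas 4 of 9 rose and 1 fell. The CREB coactivators split, with Crtc3 (1.24, adjusted p = 0.00384) and Crtc2 (0.75, adjusted p = 0.016) higher and Crtc1 (-0.97, adjusted p = 0.00594) lower. Of the genes known to respond to cAMP, Fos and the deiodinase Dio2 rose in both tissues. Fos rose by 1.90 in fat (adjusted p = 0.00524) and 3.12 in the pancreas (adjusted p = 0.0176), and Dio2 by 3.05 (adjusted p = 0.00145) and 3.67 (adjusted p = 0.0341). Dio2 was low, at means of 0.28 and 2.4 CPM in control and OA-AP fat and 0.129 and 1.83 CPM in the pancreas. Ppargc1a, a coactivator of mitochondrial genes, fell in both. Ppargc1a fell from 11.4 ± 1.09 to 2.65 ± 0.513 CPM in fat (-2.11, adjusted p = 0.000569) and from 3.77 ± 0.122 to 0.518 ± 0.443 CPM in the pancreas (-2.87, adjusted p = 0.00718). Nr4a2 fell in the pancreas (-1.37, adjusted p = 0.00297). Of the proteins through which PKA acts on lipid droplets, Plin1, which coats the droplet, fell from 1536 ± 107 to 553 ± 165 CPM in fat (-1.47, adjusted p = 0.00379), and Abhd5, the activator of the lipase Pnpla2, rose (0.79, adjusted p = 0.00373). Plin1 also stands on the adipocyte marker list. In the pancreas the lipases Lipe (1.25, adjusted p = 0.00174) and Pnpla2 (2.80, adjusted p = 0.00195) rose. Of the 5 sympathetic nerve genes Th and Dbh were at 0 in every adipose library, and the list summed to 3.86 to 5.34 CPM over the 6 libraries. Nerve supply itself was not measured, and these values do not stand for it.

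**Figure D5:**
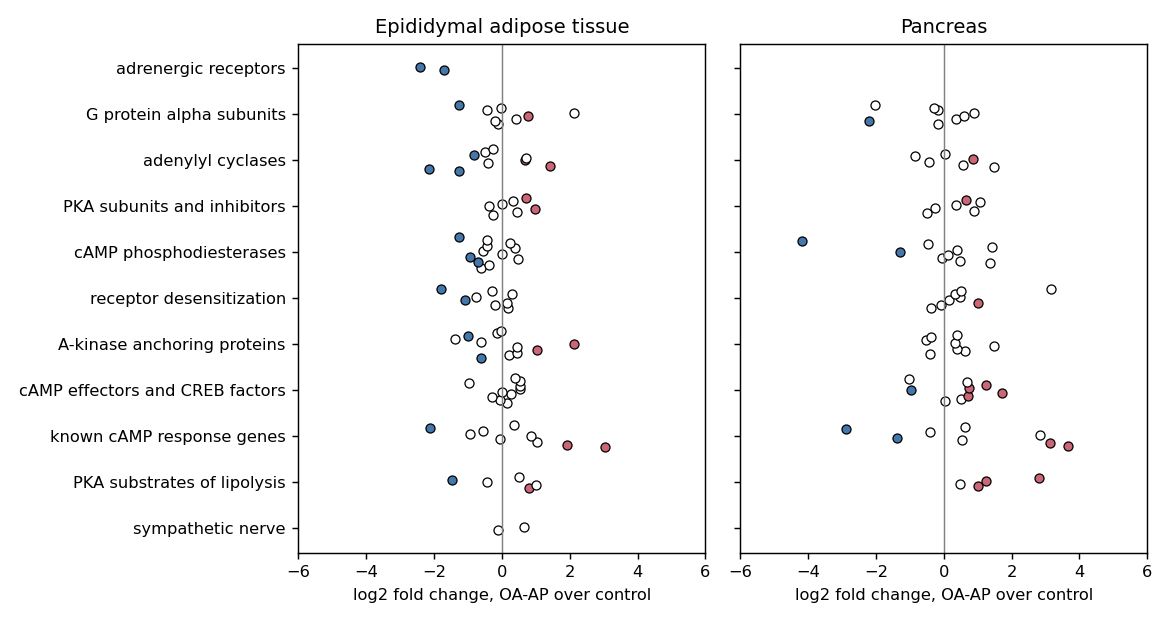
Log2 fold change of OA-AP over control (horizontal axis) for the other pathway genes tested in each tissue, by role. Each point is a gene, filled where called (red higher, blue lower) and open where not called. Called genes lie on both sides of 0 in fat, and 12 of the 18 called in the pancreas lie to the right.

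Likeness of pattern was measured as Pearson's r of log2 CPM among genes with a mean of at least 3 on that scale, as a description of points that share tissue and group. Over the 6 adipose libraries and 10026 genes, those most like Pde3b were Pla2g16 (0.9998), Gm454 (0.9992) and Acvr1c (0.9978), and those most like Adrb3 were Pcif1 (0.9987), Dusp22 (0.9968) and Lonp2 (0.9961). Adra1a, high in 1 OA-AP library, was most like Ubap1 (0.997), Fam49a (0.9952) and Jdp2 (0.9838). Over all 11 libraries the tissues form separate clusters, so the values there mainly order genes by tissue and are not given.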

How the data were processed

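RNA sequencing of mouse pancreas (2 control, 3 OA-AP) and epididymal adipose tissue (3 and 3) was analysed from whole-number counts per gene that the authors deposited without normalization. Reads were trimmed with Trim Galore (0.6.6), quality-checked with fastp (0.20.1), mapped to GRCm38 with STAR and counted on genes with featureCounts (2.0.1). The annotation release and the strand setting are not given in the sources used here. The adipose table uses older symbols for some genes, so genes were matched by identifier. Gene length in bases, which the authors deposited with the pancreas counts, entered no test.

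Groups came from the sample labels. Genes were filtered with filterByExpr, scaled with TMM and tested in each tissue with edgeR (4.0.16, R 4.3.3) by the robust quasi-likelihood test, with Benjamini-Hochberg adjustment over all genes tested. Differences between tissues came from a joint fit of the 11 libraries in 4 groups. Each SE is the size of the estimate over the root of its F statistic. Alternatives were DESeq2 (1.42.0), its size factors, library totals, TMM without acinar genes, other filters and fold thresholds, each library left out, and a replicate block. Floors of 3 counts cover counting error only.

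The 9 genes and all gene lists were chosen with earlier results of these data known. Every one of the 9 was named, and of the other pathway genes up to 2 called genes with the smallest adjusted p per role, tissue and direction. The 4 cAMP effectors and CREB factors of fat that missed only the fold threshold were also named. Some results of the pathway are not reported here. On simulated data with 100 genes changed at each size, the pancreas test found 40 at a log2 fold change of 1 and 77 at 2 among 12884 genes, and the adipose test 49 and 85 among 15839. Of the simulated calls 17 of 134 in the pancreas and 7 of 141 in adipose tissue were false. The joint test found 5 and 50 of 100 among 17046 genes. Counts of replicates differed by 7.56 to 73.9 times the counting noise (chi-square per degree of freedom), and no pair was treated as 1 library.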

Additional observations from a re-analysis of the deposited data

Results flagged for a closer look

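The change with OA-AP differed between adipose tissue and pancreas for 5 of the 9 genes by the tissue by condition term of edgeR, given as the adipose minus the pancreas log2 fold change. The term was -2.54 for Adra2a, 3.19 for Adrb1, 1.38 for Gnas, -1.16 for Pde3b and 0.59 for Prkaca. Adra2a rose and Gnas fell in the pancreas and neither was called in fat, and Pde3b fell in fat and was not called in the pancreas. Adrb1 rests on 1 to 29 counts per pancreas library. Prkaca lost the call in 9 of the 11 fits that left out a library, and its sign depends on the scaling.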

How the results depend on the processing

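The number of the 9 genes called in fat was 2 under most alternatives, and the range on leaving out a library was 2 to 4, with 4 reached without adipose OA-AP replicate 2. In the pancreas it was 3 to 4 on leaving out a library, and 2 with a filter of 10 counts in every sample, which leaves 4 genes to test. For the tissue by condition term the range was 3 to 5, with 2 under the 10-count filter, and between control tissues 4 to 7, with 4 without control pancreas replicate 1 and 3 under that filter. Other pathway genes called in the pancreas were 8 to 21 on leaving out a library, with 8 without either control, 41 with library totals alone and 28 without a filter. In fat they were 16 to 40, with 40 without OA-AP replicate 2, and 15 at a fold change of 2. Adra1a in fat ranged from -0.89, without adipose OA-AP replicate 2, to 0.45 on leaving out a library. With library totals alone 4 values reversed, Prkaca for the tissue by condition term (-0.27) and Adrb1 (-1.92), Adra2a (-0.48) and Gnas (-1.70) between control tissues. Adra1a in fat also reversed, as it was called lower without adipose OA-AP replicate 2, the library singled out by its own values. The remaining sign changes concerned genes that were not called.

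Same-numbered control and OA-AP libraries are different animals, and their deviations from the group means correlated at -0.16 to 0.06, so the numbers do not pair them. With the replicate block 4 of the 9 genes were called in the pancreas and 3 in fat. For the tissue by condition term the block instead joined same-numbered pancreas and adipose libraries of a condition. Whether these came from the same animals is not stated. With that block 3 of the 9 genes were called for the term, and Adrb1 and Prkaca lost their calls. At 0 to 29 counts per library, as for Adrb1, Prkar2b and Adrb3 in the pancreas, small changes are not detectable at this depth.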
